A study of Homo sapiens with 33 samples.

Results

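The regions described here were the 715 genomic intervals at the very top of the binding profile of wild-type (WT) MITF in melanoma cells. Each WT library had been deposited as a list of peaks, and the 1000 peaks of highest −log10 q were taken from each of the 3 lists (chromosomes 1 to 22 and X, ties settled by fold enrichment). These peaks merged into 1096 intervals, of which 715 were covered by such a peak in all 3 lists, 157 in 2 lists and 224 in 1 list. The 715 intervals are called members below. The rule used the −log10 q of the WT libraries, so WT ranks are given only as a description, and no test sets a variant against WT.

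MITF was profiled by CUT&Tag, in which an antibody tethers a transposase that cuts and tags the DNA around the bound protein. The host was the human melanoma line UACC-257, and the labels give MITF knockdown and doxycycline treatment for every library, Empty and WT included. The antibody was directed at an HA tag, and 400000 cells went into each library. The groups were the MITF variants E260A, G244E, K243A, N278D, Q261A, Y253A, rep217A, rep263A and A264C, an empty control (Empty) and WT. There were 33 libraries, 3 in each of the 11 groups. The labels do not explain the names rep217A and rep263A, and nothing in them tells if replicates came from different cultures or clones. The p-values therefore cover the spread between these libraries, which may be technical. All groups came from 1 cell line, and the amount of tagged protein was not measured here. Replicates 2 and 3 of rep217A held the same list, as did those of rep263A. Each such pair was taken as 1 library, so n = 2 for rep217A and rep263A and 31 libraries were distinct.

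MITF is a basic helix-loop-helix leucine zipper protein that binds DNA as a dimer, on its own or with its relatives TFEB, TFEC and TFE3. Its sites are E-boxes, chiefly CACGTG and CATGTG, the second with a preceding T in the M-box of pigment genes. In melanocytes it drives pigment, survival and cell cycle genes, and with its relatives it shares promoters of lysosomal and nutrient-sensing genes, where the E-box often reads GTCACGTG.

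Promoters of some members carry CACGTG, at genes of these classes among others, and stretches of a few are shown for genes named below. They come from the RefSeq promoter table (GRCh38.p14, the same build as the peaks, hg38), each is 66 bases long and lies upstream of the gene's start, and capitals mark CACGTG. The stretches shown for FNIP1, LAMTOR1 and NEU1 do not hold the longer GTCACGTG on either strand. FNIP1 and CDK4 also held CACGTG at positions not shown. NAPA encodes alpha-SNAP, which takes SNARE complexes apart after membrane fusion, and its promoter held CACGTG at 2 positions. CLCN6 encodes a chloride/proton exchanger of late endosomes. RRAGC, FNIP1 and LAMTOR1 encode proteins that recruit mTORC1 to the lysosome or regulate that step. NEU1 is the lysosomal sialidase, ATP6V0D1 a subunit of the proton pump that acidifies lysosomes, and CDK4 a cyclin-dependent kinase.
NAPA distal, chr19:47515242-47515307, minus strand: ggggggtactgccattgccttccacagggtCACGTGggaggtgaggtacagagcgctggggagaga
NAPA proximal, chr19:47515064-47515129, minus strand: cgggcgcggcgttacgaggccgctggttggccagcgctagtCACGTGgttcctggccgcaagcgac
CLCN6, chr1:11806125-11806190, plus strand: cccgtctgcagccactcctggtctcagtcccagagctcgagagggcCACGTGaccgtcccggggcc
RRAGC, chr1:38859849-38859914, minus strand: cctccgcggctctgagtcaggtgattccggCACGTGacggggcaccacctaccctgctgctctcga
FNIP1, chr5:131797076-131797141, minus strand: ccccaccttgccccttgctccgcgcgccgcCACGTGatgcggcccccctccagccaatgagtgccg
LAMTOR1, chr11:72103427-72103492, minus strand: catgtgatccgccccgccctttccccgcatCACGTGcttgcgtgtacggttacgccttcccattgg
NEU1, chr6:31862912-31862977, minus strand: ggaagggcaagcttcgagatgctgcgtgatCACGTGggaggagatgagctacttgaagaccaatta
ATP6V0D1, chr16:67481181-67481246, minus strand: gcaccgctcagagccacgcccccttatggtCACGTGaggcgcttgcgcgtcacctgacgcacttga
CDK4, chr12:57752376-57752441, minus strand: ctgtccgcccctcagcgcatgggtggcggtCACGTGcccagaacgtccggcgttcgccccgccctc

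Over all promoters that a member overlapped, CACGTG was present in 114 of 444 (25.7%), against 545 of 3136 (17.4%) promoters at other WT regions of the 10000 strongest peaks and 1846 of 22132 (8.34%) promoters of the whole table. A promoter here runs from 250 bases before to 50 after the gene's start, and both strands were searched. The longer GTCACGTG, which contains CACGTG, was in 16.2% of member promoters, 9.76% of promoters at other WT regions and 3.08% of all promoters. CATGTG was in 12.2%, 6.54% and 8.93% of these 3 sets, and TCATGTG, which contains CATGTG, in 4.05%, 2.36% and 2.31%. These shares are descriptions of letters in a window and were given no test.

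Depth differed between the lists. Relative depth, the commonest local background recovered from the deposited fold and p, was 0.697 to 1.49 in E260A, N278D, Q261A, Y253A and A264C, 0.427 to 0.487 in rep263A, 0.276 to 0.348 in rep217A, 0.132 to 0.244 in K243A, 0.108 to 0.151 in G244E, at most 0.03 in Empty and 1.08 to 1.20 in WT. A region far down a list of K243A, G244E, rep217A or Empty may be undetectable at that depth and need not be unbound. The −log10 q of the 1000th peak was 35.3 to 46.6 in G244E and 3.94 to 5.66 in Empty, against 300.1 to 322 in WT. Of the 10000 strongest Empty peaks, 97.7% to 98.8% shared their −log10 q with another peak, so Empty ranks rest largely on the fold that settled ties. Such ties made up 69.1% to 76.4% in G244E, 52.4% to 69.4% in K243A and 47.2% to 52.9% in rep217A. They made up 30.3% to 34.8% in rep263A and 4.96% to 8.17% in A264C. Fold thus settled many places within the lists of G244E, K243A and rep217A too.

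The members had a median width of 1016 bp (462 to 2180) and lay nearest to 673 protein-coding genes. RBMS1, SLC1A4 and ZNF706 each had 3 members and 36 genes had 2. A gene end here is an outer end of the gene's RefSeq span, so a start within the span does not count as one. The strongest WT summit lay within 1000 bp of either end of a gene in 306 members (42.8%), further inside a gene in 208 (29.1%) and between genes in 201 (28.1%). Among the 6339 other regions shared by the 10000 strongest peaks of the 3 WT lists, these shares were 38.3%, 34.6% and 27.1%. At the edge of the rule, the last 3 members inside were near PLEKHG4 (WT ranks 998, 714 and 999), CHAF1B (722, 999 and 938) and CASQ2 (736, 763 and 1000). The first 3 outside were near COPRS (1002, 738 and 878), H2AX (1006, 752 and 827) and MCHR1 (712, 869 and 1010), so the membership of such regions turned on a few places in 1 list.

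How well the rule holds in libraries it did not use was seen with regions shared by the 1000 strongest peaks of a WT pair. The third WT library had 93.2% ± 1.73 of them among its own 1000 strongest (SD, n = 3) and A264C libraries had 92.9% ± 0.797 (n = 3). Ranked by −log10 q, A264C thus returned the regions of a WT pair to an extent within the spread of WT itself. Ranked by fold, the shares were 76.2% ± 1.78 in A264C and 78.1% ± 0.558 in the third WT library. A264C serves below as the comparison for the other variants and was chosen because it stood closest to WT in earlier results of these data.

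The members were called as peaks of some rank in every variant library, 715 of 715. The variant lists held 99918 to 299680 peaks on these chromosomes, and Empty libraries also called 627 to 653 of the members. The share of other regions called at any rank is not given here, so this count alone does not show that binding was kept. The members' place in the list differed. Among their own 1000 strongest peaks, E260A libraries had 497, 504 and 479 members, G244E libraries 391, 383 and 379, and K243A libraries 482, 497 and 497. N278D libraries had 449, 465 and 472, Q261A libraries 566, 550 and 529, and Y253A libraries 500, 471 and 464. The rep217A libraries had 300 and 284, the rep263A libraries 556 and 544, A264C libraries 677, 685 and 686, and Empty libraries 180, 155 and 187. A264C stood above all other variants and rep217A below them, with no overlap in either case, and every variant library stood above every Empty library. That order depended on the ranking. With peaks ranked by fold, the mean was 338 in K243A, 299.7 in G244E and 197 in rep217A, but 39.3 to 138 in the other 6 variants, A264C included, against 184 in Empty. Median ranks by −log10 q ran the same way as the counts by −log10 q, with 1407 and 1475 in rep217A, 852 to 894 in G244E and 385 to 394 in A264C.

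**Figure D1:**
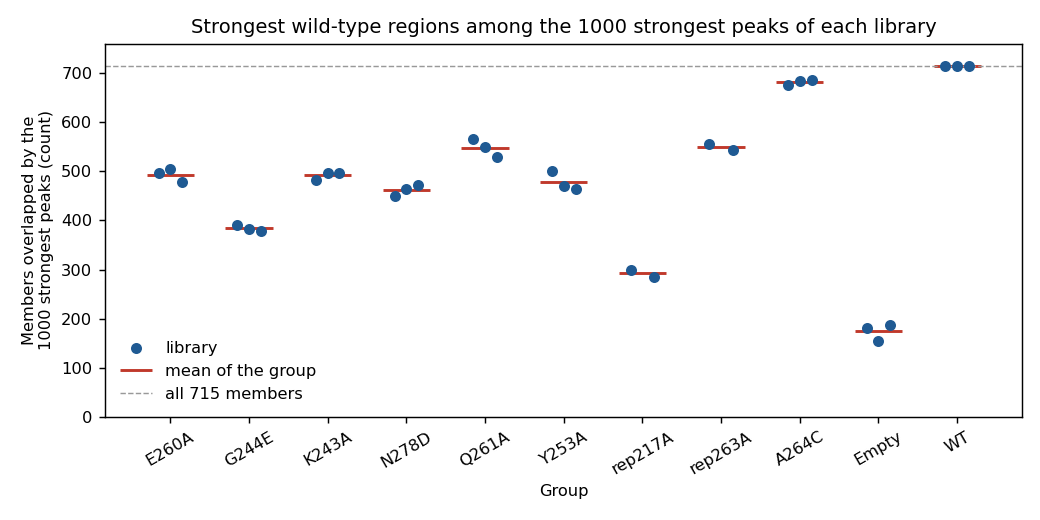
Number of the 715 strongest WT regions that the 1000 strongest peaks of each library overlapped (y axis, count) by group (x axis); points are libraries, red bars group means, and the dashed line marks all 715. A264C libraries sit at 677 to 686 and rep217A at 284 and 300, with Empty at 155 to 187; WT is at 715 by the rule.

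The members that WT ranked best were also those the variants kept best. The bands were cut by the WT rank that the rule used, and members of poorest WT rank stood closer to the cut at 1000. The difference between bands is thus in part built in and is given as a description only. A264C kept 100% of the first 100 as well. Of the 100 members of best mean WT rank, E260A kept 94% to 99% among its 1000 strongest peaks, Q261A and rep263A 100%, and G244E 80% to 82%. The rep217A libraries kept 67% and 68% of these 100 and Empty 27% to 39%. Of the 315 members of poorest mean WT rank, E260A kept 53.0% to 54.6%, G244E 39.4% to 43.2%, rep217A 27.3% and 28.6%, A264C 88.3% to 90.8% and Empty 17.8% to 25.1%. A group of 95 members was in the 1000 strongest of all 25 variant libraries. Of these 95, 27 were also in the 1000 strongest of all 3 Empty libraries and 26 in those of none. At the other end, 12 members were in the 1000 strongest of no library of the 8 variants other than A264C, and 9 of the 12 lay at a gene end.

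PGK1 headed the members. The region just upstream of this gene of glycolysis (chromosome X, 78103742 to 78104378) ranked 1 in every library of WT, A264C and the 7 variants other than rep217A, 5 and 5 in rep217A, and 2, 1 and 3 in Empty. It thus stood at the top in Empty as well, so its rank does not tell libraries with tagged MITF from the empty control. Against A264C its place in rep217A was further from the top by 2.32 ± 0.34 on the log2 rank scale (SE, limma adjusted p = 2.5e-05), and the sign turned when peaks were ranked by fold in place of −log10 q. Here and below, a log2 rank difference is the variant minus its comparison, fitted over 33065 regions of the 10000 strongest peaks, with a region past that length given the next rank, and a positive value means further from the top.

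NAPA was second in mean WT rank (chromosome 19, 47514745 to 47515692, ranks 3, 3 and 3). It ranked 276, 233 and 343 in G244E, 11, 12 and 12 in K243A and 1 and 1 in rep217A, against 3, 2 and 3 in A264C and 679, 383 and 1551 in Empty. The G244E libraries stood far below all A264C libraries, and the rep217A libraries above them, although the rep217A difference did not pass the test (limma adjusted p = 0.12). The difference from A264C was 6.74 ± 0.50 in G244E and 2.15 ± 0.50 in K243A (limma adjusted p = 1.3e-08 and 0.0094), but under ranking by fold its sign turned in both. The K243A call was lost without replicate 1 or 2 (adjusted p = 0.17 and 0.15).

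The region inside TIMP2, an inhibitor of matrix metalloproteinases (chromosome 17, 78883036 to 78884506), kept its place in most variants and fell back in rep217A. It ranked 72 and 76 in rep217A, against 4, 5 and 7 in A264C and 990, 1755 and 2071 in Empty. The 23 libraries of the other 8 variants all ranked it between 3 and 7. ANKRD10 had ranks of 217 and 386 in rep217A and 39, 18 and 16 in G244E, against 5, 4 and 4 in A264C and 11, 86 and 32 in Empty. The differences from A264C were 3.83 ± 0.38 in rep217A for the TIMP2 region, and 6.07 ± 0.58 in rep217A and 2.38 ± 0.52 in G244E for ANKRD10 (limma adjusted p = 1.1e-07, 7.6e-08 and 0.0034). Ranking by fold turned the sign of all 3, and the G244E call of ANKRD10 was lost without replicate 3 (adjusted p = 0.065).

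Other members of the first 12 separated the variants in other ways. The promoter of ZNFX1, a helicase that senses viral RNA, ranked 3, 4 and 3 in G244E, 4, 5 and 4 in K243A and 904 and 1747 in rep217A, against 21, 22 and 17 in A264C and 40, 2020 and 2606 in Empty. CLCN6 ranked 778, 633 and 505 in N278D and 376, 925 and 707 in Y253A, against 10, 11 and 10 in A264C and 31, 1125 and 2217 in Empty. The G244E and K243A differences of ZNFX1 did not pass the test (limma adjusted p = 0.12 and 0.34). The difference from A264C was 5.98 ± 1.10 in rep217A for ZNFX1 and 5.93 ± 0.94 in N278D for CLCN6 (limma adjusted p = 0.00039 and 0.00023). Under ranking by fold the ZNFX1 sign turned and the CLCN6 value was 0, and without replicate 2 the ZNFX1 and CLCN6 calls were lost (adjusted p = 0.11 and 0.068).

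Further members of the first 12 fell back most in rep217A or G244E. FTH1, the heavy chain of ferritin, ranked 1013 and 945 in rep217A and 92, 60 and 19 in K243A, against 15, 14 and 15 in A264C. The region near BAHCC1, a chromatin reader, ranked 95, 197 and 148 in N278D and as low as 325 in rep217A, against 8, 10 and 12 in A264C and 24706, 6839 and 2635 in Empty. The region inside USP32, a deubiquitinase, ranked 156, 1072 and 779 in G244E, against 7, 8 and 8 in A264C, and the region near UBL3 ranked 389, 246 and 812 in G244E, against 9, 12 and 6. SYNCRIP, an RNA-binding protein gene, ranked 191 and 142 in rep217A, against 11, 18 and 14 in A264C. None of these groups overlapped A264C. All these differences from A264C passed the test except that of FTH1 in K243A (1.69, limma adjusted p = 0.066). Under ranking by fold the sign turned for FTH1, BAHCC1 and SYNCRIP in rep217A and for USP32 and UBL3 in G244E, and the BAHCC1 value in N278D was 0. The SYNCRIP call was lost without replicate 1 or 2 (adjusted p = 0.077 and 0.079).

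**Figure D2:**
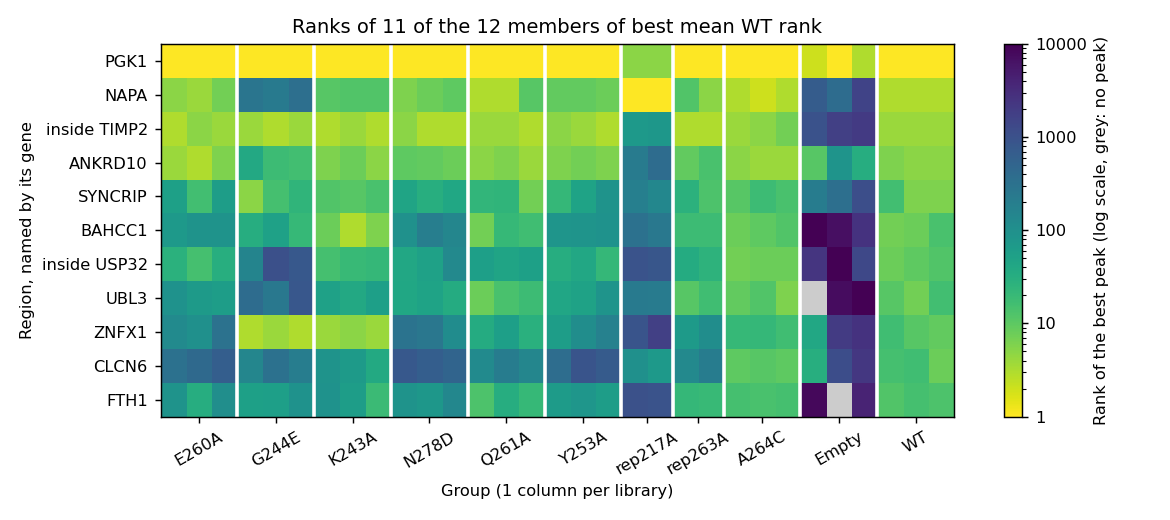
Rank of the best peak in 11 of the 12 members of best mean WT rank (rows) in each library (columns, by group), on a log colour scale on which yellow is rank 1, the darkest colour rank 10000 or beyond, and grey no peak. PGK1 is near the top in all groups including Empty, NAPA is at rank 1 in rep217A and at 233 to 343 in G244E, and ZNFX1 is at 3 to 5 in G244E and K243A.

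The position of a member relative to genes separated the variants into sets. In N278D, members at gene ends were among the 1000 strongest in 51.3% to 54.9%, against 69.7% to 75.5% of those inside genes and 70.1% to 78.6% of those between genes. Y253A gave 50.3% to 57.2% at gene ends, against 73.6% to 76.4% inside and 77.1% to 83.6% between genes. In Q261A, rep263A and E260A the gene-end share was also below both others in every library. K243A and G244E went the other way. K243A kept 75.8% to 79.1% of gene-end members, against 57.2% to 63.9% inside and 62.2% to 65.7% between genes, and G244E kept 63.1% to 69.6%, against 35.6% to 41.3% and 47.8% to 52.2%. In A264C the shares lay between 92.8% and 97.5% in all 3 positions.

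As a single figure per group, the gene-end share minus that of all other members was −20.0 ± 4.95 percentage points in N278D, −19.8 ± 6.71 in Q261A, −24.4 ± 1.84 in Y253A and −9.03 ± 2.37 in E260A (SD, n = 3 each), and −16.2 ± 0.459 in rep263A and −3.12 ± 1.68 in rep217A (n = 2 each). It was 14.3 ± 2.97 in K243A and 22.8 ± 5.22 in G244E, against −0.664 ± 0.815 in A264C and 20.1 ± 4.67 in Empty (n = 3 each). The G244E, K243A and Empty libraries, all at 11.0 or more, were also the 9 shallowest, at a relative depth of 0.244 or less, and the part of depth in the split was not tested. Of the other libraries only 1 of A264C had a value above 0 (0.15). Ranked by fold, the difference shrank to −3.14 in N278D, −5.14 in Q261A, −2.54 in Y253A, −3.51 in E260A and −8.15 in rep263A and was 12.9 in K243A and 16.4 in G244E, against −3.92 in A264C and 21.5 in Empty. The rep217A libraries, at 0.276 and 0.348, had differences of −1.94 and −4.31. In Empty, the gene-end share was 30.4% to 40.2%, against 15.4% to 16.8% inside and 14.4% to 17.4% between genes.

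**Figure D3:**
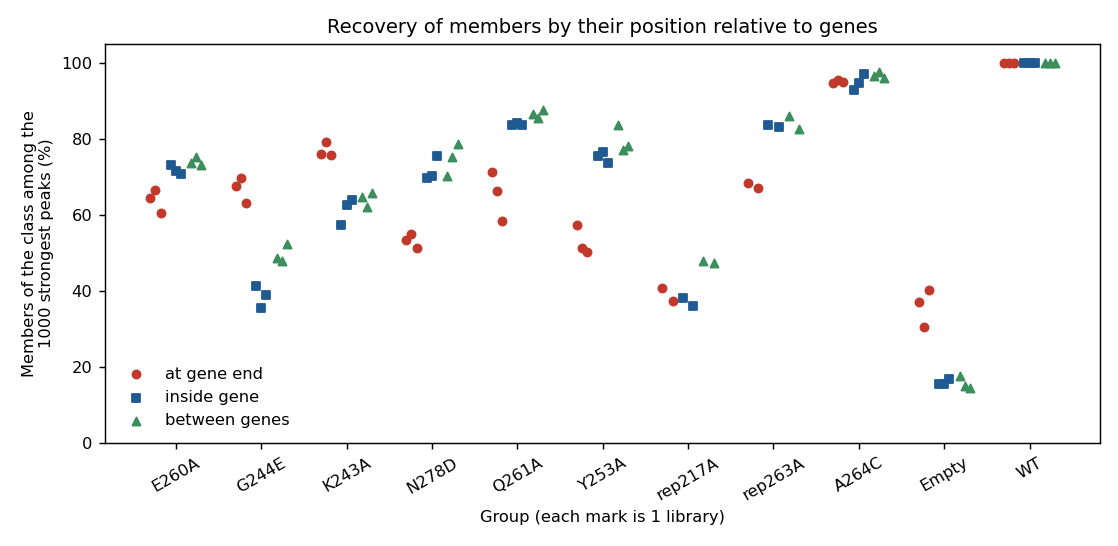
Share of members among the 1000 strongest peaks (y axis, %) for members at a gene end (306, red circles), further inside a gene (208, blue squares) and between genes (201, green triangles), 1 mark per library, by group (x axis). Gene-end members lie above the other classes in G244E, K243A and Empty and below them in E260A, N278D, Q261A, Y253A and rep263A.

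Against A264C, members moved away from the top of the list in each of the 8 other variants. In rep217A, 373 of 715 members were further from the top (limma adjusted p under 0.05), where 6.42% of all 33065 regions were. In G244E it was 323, where 6.63% of all regions were, and in N278D 197, where 2.99% were. E260A had 161 (2.72% of all regions), K243A 161 (4.16%), Y253A 158 (2.56%), Q261A 68 (1.27%) and rep263A 58 (0.986%). The members' median log2 rank difference was 2.0 in rep217A, 1.43 in G244E, 0.85 in N278D, 0.80 in Y253A, 0.71 in E260A, 0.67 in K243A, 0.34 in Q261A and 0.31 in rep263A, and that of all regions was 0 in each. Members were chosen at the top of WT, and A264C, chosen for standing closest to WT, held nearly all of them there. Most of their room to move thus lay away from the top, whereas many of the other regions lay beyond the list in both groups. An excess of members further from the top than in A264C therefore follows in part from these choices.

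Few members moved the other way. Nearer the top than in A264C were 44 members in rep217A (8.65% of all regions), 43 in G244E (4.34%), 40 in N278D (3.81%), 37 in Y253A (3.68%), 28 in E260A (3.91%), 27 in K243A (1.46%), 12 in Q261A (1.63%) and 8 in rep263A (0.841%). These were 1.12% to 6.15% of the members. The members' share was below that of all regions in rep217A (6.15%) and at or above it in the others, with 6.01% in G244E, 5.59% in N278D, 5.17% in Y253A and 3.78% in K243A.

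These counts depended on the ranking. With peaks ranked by fold in place of −log10 q, 400 members were nearer the top than in A264C in G244E, 443 in K243A and 238 in rep217A, the 3 shallowest variants, and 28, 4 and 20 were further from it. Of 70 tests of single members against A264C, that ranking turned the sign of 32 and ended the call of another 24. In that ranking only 78 to 105 members were among the 1000 strongest peaks of a WT library, and 310 to 361 in K243A and 277 to 321 in G244E. The counts also fell when a replicate number was left out of all groups. Without replicate 1 or 2, the further members numbered 77 and 85 in E260A, 86 and 88 in K243A, 99 and 101 in N278D, 78 and 75 in Y253A, 28 and 15 in Q261A, and 17 and 13 in rep263A. With Empty left out of the fit they numbered 123 in Q261A, 238 in Y253A and 108 in rep263A.

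**Figure D4:**
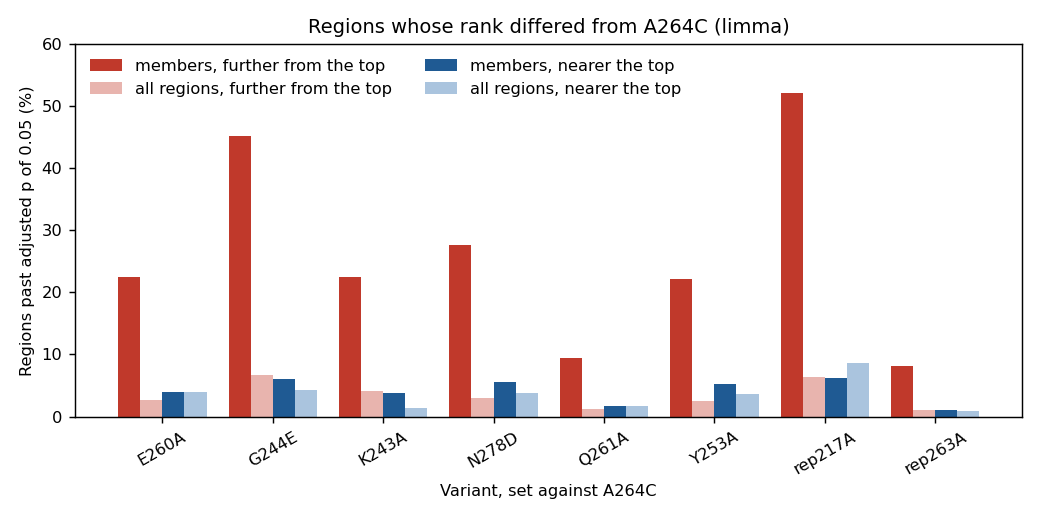
Share of the 715 members (dark bars) and of all 33065 regions (pale bars) whose rank differed from A264C at a limma adjusted p under 0.05 (y axis, %), further from the top (red) or nearer to it (blue), for 8 variants (x axis). The members' share further from the top is highest in rep217A and G244E and lowest in rep263A and Q261A.

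The calls against A264C rest on the same ranks and showed the same split by position. In N278D, 113 of 306 gene-end members were further from the top than in A264C (36.9%), against 42 of 208 inside genes (20.2%) and 42 of 201 between genes (20.9%). Y253A had 34.3% at gene ends, against 13% inside and 12.9% between genes. G244E had 32.0% at gene ends, against 60.1% inside and 49.8% between genes, and K243A 12.7%, against 30.3% and 29.4%. In rep217A the shares were 51.0%, 54.8% and 51.2%. Each of these comparisons uses the same A264C libraries, so the variants' values are set side by side and the sets of members were not compared. Against Empty the picture differed, and members nearer the top had their lowest share at gene ends in every variant but G244E. K243A had 53.6% at gene ends, 66.8% inside and 72.1% between genes, and G244E 47.7%, 36.5% and 47.8%.

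Some members inside or between genes stood far down the lists of G244E and K243A. NAPA and LAMTOR1, which lay at gene ends, also fell far in G244E. HTR2A, a serotonin receptor gene, has a member inside it (chromosome 13, 46866073 to 46866702) with no peak in any Empty library. It ranked 6030, 3489 and 11715 in G244E, 2726, 3165 and 4274 in K243A and 11939 and 7393 in rep217A, but 7, 8 and 8 in E260A and 14, 12 and 18 in Y253A, against 54, 40 and 43 in A264C. G244E, K243A and rep217A lay wholly below A264C, and E260A and Y253A wholly above it. The differences from A264C were 7.04 ± 0.47 in G244E, 6.20 ± 0.47 in K243A and −2.57 ± 0.47 in E260A (limma adjusted p = 4.2e-09, 1.4e-07 and 0.00096). The E260A call was lost without replicate 1 (adjusted p = 0.12), and its sign turned under ranking by fold.

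SEMA5A, a semaphorin gene, had a member inside it that also stood low in G244E and K243A and high in E260A and Y253A (chromosome 5, 9156929 to 9157707). It ranked 19255, 16504 and 22451 in G244E and 1810, 1700 and 1990 in K243A, but 20, 25 and 14 in E260A, 18, 15 and 16 in Y253A and 42, 70 and 50 in N278D, against 183, 242 and 193 in A264C and 285, 476 and 492 in WT. No library of these variants overlapped A264C. The differences from A264C were 5.61 ± 0.29 in G244E, 3.16 ± 0.29 in K243A, −3.42 ± 0.29 in E260A and −3.65 ± 0.29 in Y253A (limma adjusted p = 3.8e-10, 8.2e-07, 8.2e-08 and 6.4e-08), and under ranking by fold the K243A and Y253A signs turned and the E260A call was lost (−0.08, adjusted p = 1).

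Other members absent from the top of G244E and K243A were near or inside genes of several kinds. Inside RGL1, which encodes an exchange factor for Ral, the ranks were 30406, 43651 and 39691 in G244E and 2234, 3845 and 4359 in K243A, against 216, 279 and 271 in A264C. Near C21orf91 they were 9111, 17720 and 47698 in G244E, 10117, 8354 and 3804 in K243A and 197 and 192 in rep217A, against 134, 174 and 270 in A264C. The rep217A ranks overlapped those of A264C. The differences from A264C were 5.30 ± 0.34 in G244E for RGL1 and 5.21 ± 0.37 in K243A for C21orf91 (limma adjusted p = 2.9e-09 and 8.8e-08). Inside CAPN3, a calpain protease gene, and near EXOC2, an exocyst subunit gene, G244E ranks were 1259 to 1852 and 15213 to 29106, against 32 to 36 and 379 to 810 in A264C, and the CAPN3 sign turned under ranking by fold. In that ranking the K243A calls of C21orf91 and RGL1 were lost (1.73 and 0.02, adjusted p = 0.075 and 1), as was the G244E call of EXOC2 (0.43, adjusted p = 0.99).

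Of the 8 members among the 3 of worst mean rank in E260A, Y253A or N278D, 5 lay at a gene end. Of all members 42.8% did, and so small a count was not tested. MEPCE, the capping enzyme of 7SK RNA, ranked 8519, 5511 and 5997 in E260A and 6238, 7321 and 5268 in Y253A, but 150, 158 and 523 in G244E, against 1211, 785 and 876 in A264C and 207, 203 and 1091 in Empty. MYO9A, an unconventional myosin gene, ranked 6403, 7204 and 7308 in E260A and 561, 200 and 436 in G244E, against 1022, 611 and 642 in A264C and 1056, 1073 and 834 in Empty. At both regions E260A stood below, and G244E above, all A264C libraries, and at MYO9A every E260A library stood below every Empty library. The differences from A264C were 2.80 ± 0.53 in E260A and −2.02 ± 0.53 in G244E for MEPCE and 3.24 ± 0.32 in E260A for MYO9A (limma adjusted p = 0.0013, 0.013 and 6.7e-07). Both MEPCE calls were lost without replicate 1 or 2. Under ranking by fold the E260A value of MEPCE was 0 and that of MYO9A 0.08, both without a call.

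Other gene-end members of these variants were SYNRG, RPS9 and ZFAT. SYNRG ranked 5246, 4566 and 5645 in N278D, against 929, 1017 and 687 in A264C, and RPS9, a ribosomal protein gene, 5927, 7605 and 4364 in N278D, against 1398, 872 and 542. The RPS9 call (limma adjusted p = 0.046) was lost without replicate 1 or 3, with lists of 20000 peaks, with ranking by fold or −log10 p, and with a replicate block. ZFAT ranked 4633, 7673 and 5306 in Y253A, against 495, 627 and 500 in A264C. Inside ST3GAL2, a sialyltransferase gene, N278D ranks were 8249, 7612 and 7019, against 550, 430 and 512 in A264C (log2 rank difference 3.94 ± 0.46, limma adjusted p = 6.8e-06), and under ranking by fold the difference was 0.24 (adjusted p = 1). The ZFAT call in Y253A was lost without replicate 2 (adjusted p = 0.14).

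In rep217A, the promoters of ATP6V0D1 and VPS18 stood nearer the top than in A264C. ATP6V0D1 (chromosome 16, 67480420 to 67481511) ranked 27 and 16 in rep217A, against 520, 634 and 748 in A264C, 9111, 169 and 1849 in Empty and 393, 588 and 462 in WT. VPS18, a core subunit of the complexes that tether vesicles to endosomes and lysosomes (chromosome 15, 40893780 to 40895332), ranked 161 and 145 in rep217A, against 1151, 903 and 1808 in A264C. In both cases the rep217A libraries stood above every A264C library. The differences from A264C were −4.92 ± 0.92 and −3.01 ± 0.37 (limma adjusted p = 0.00047 and 2.3e-06). VPS18 is on none of the gene lists. Of the 5 members at lysosome and autophagy genes, ATP6V0D1 was nearer the top in rep217A, ACP5 and ATP6V1B2 were further from it and NEU1 and WIPI1 did not pass the test. NEU1 ranked 22 and 24 in rep217A, against 68, 50 and 63 in A264C and 736, 70 and 187 in Empty.

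Other members stood far down the list in rep217A. APOE, the apolipoprotein gene (chromosome 19, 44905257 to 44906321), ranked 17707 and 10871 in rep217A, against 123, 155 and 206 in A264C. PPP1R12B, a subunit of myosin phosphatase (chromosome 1, 202348394 to 202349506), ranked 12257 and 11434, against 47, 88 and 70. The region far from PCDH7, a protocadherin gene, ranked 10992 and 12852, against 155, 162 and 94. All 3 were thus among the first 206 peaks in A264C and beyond the first 10000 in rep217A, and the differences were 5.99 ± 0.51, 7.24 ± 0.77 and 6.23 ± 0.44 (limma adjusted p = 1.1e-08, 3.4e-07 and 6.1e-10).

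**Figure D5:**
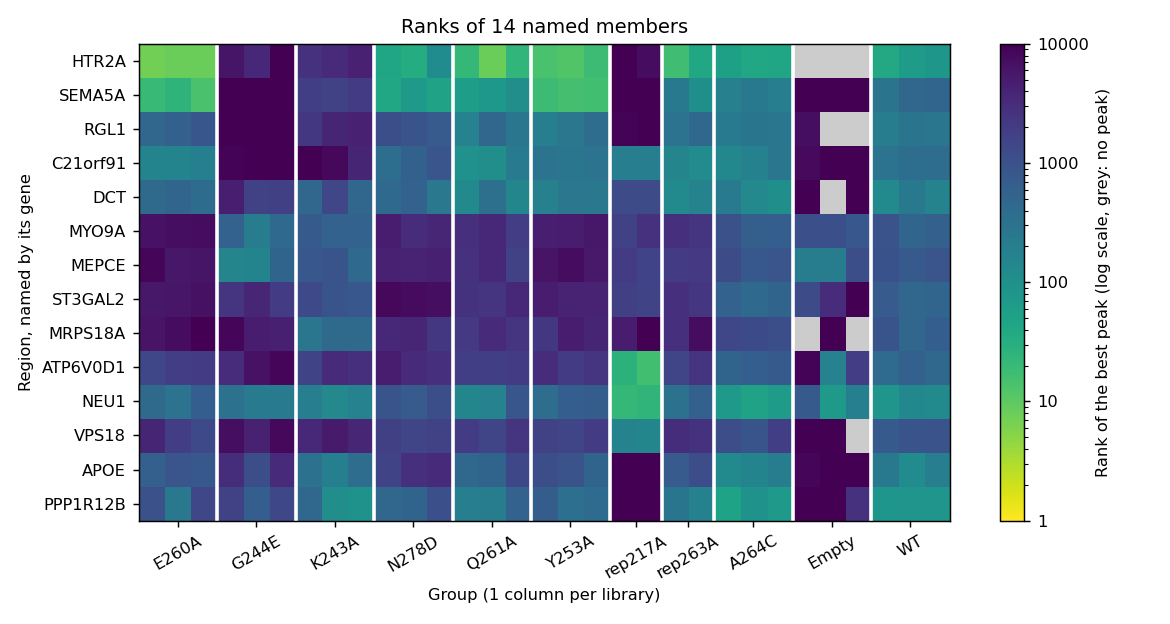
Rank of the best peak in 14 members named in the text (rows) in each library (columns, by group), on a log colour scale on which pale colours are near the top of the list, the darkest colour is rank 10000 or beyond, and grey is no peak. HTR2A to DCT are dark in G244E and K243A, MYO9A to MRPS18A dark in E260A, ATP6V0D1, NEU1 and VPS18 pale in rep217A, and APOE and PPP1R12B dark in rep217A.

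The 5 members chosen by rule as further from the top in most variants were THAP8, RRAGC, MBP, DHX35 and GALNS. RRAGC (chromosome 1, 38859186 to 38860621) ranked 396, 387 and 522 in N278D, 375 and 252 in rep263A and 101 and 166 in rep217A, against 29, 34 and 30 in A264C and 36422, 32403 and 3026 in Empty. THAP8 ranked 328, 276 and 369 in G244E and 169 and 157 in rep263A, against 24, 24 and 21 in A264C. Inside MBP, the gene of myelin basic protein, ranks were 2492, 3759 and 1968 in G244E, against 55, 81 and 81 in A264C. GALNS, a lysosomal sulfatase, ranked 2047, 1074 and 2101 in N278D, against 98, 120 and 114, and DHX35, an RNA helicase, 3426 and 1860 in rep217A, against 72, 77 and 80. In none of the groups named here did a library overlap A264C. Under ranking by fold the sign turned for RRAGC and DHX35 in rep217A, for MBP in G244E and for THAP8 in G244E and rep263A, and the N278D calls of RRAGC and GALNS were lost (adjusted p = 1 for both). Also lost were the GALNS call in N278D and the THAP8 call in rep263A without replicate 1 (adjusted p = 0.054 and 0.061) and the RRAGC call in rep217A without replicate 2 (adjusted p = 0.13).

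Near MRPS18A, a gene of the mitochondrial ribosome, ranks were 6052, 7342 and 12149 in E260A but 268, 420 and 409 in K243A, against 1400, 1260 and 1076 in A264C. The E260A difference was 2.62 ± 0.37 and the K243A difference −1.79 ± 0.37 (limma adjusted p = 5.8e-05 and 0.0040), and under ranking by fold the E260A call was lost (0.54, adjusted p = 1). Inside TSPEAR, ranks were 11052, 9687 and 15061 in Q261A and 1441 and 1443 in rep217A, against 1546, 1272 and 983 in A264C and 1554, 15979 and 731 in Empty. Its Q261A difference was 2.99 ± 0.56 (limma adjusted p = 0.0029), and the call was lost without replicate 1 (adjusted p = 0.19) and under ranking by fold (adjusted p = 0.34). TARBP2 and ILRUN, also chosen as low in Q261A and rep263A, had no call against A264C in those variants.

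The lowest members in A264C were still close to the top. NRP2, a co-receptor gene for semaphorins and VEGF, ranked 1090, 1206 and 1552 in A264C, against 870, 709 and 767 in WT. VPS18 ranked 1151, 903 and 1808 in A264C, against 744, 899 and 962 in WT. POLR1G, a subunit gene of RNA polymerase I, ranked 1856, 1151 and 1394 in A264C, against 951, 823 and 633 in WT.

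Against Empty, with peaks ranked by −log10 q, more members were called nearer the top than further from it in every variant. In 6 variants this turned when peaks were ranked by fold. Members called nearer the top were only 44.5% in G244E and 33.4% in rep217A, and most members in the other variants. The count was 525 of 715 in A264C (9.37% of all regions), 474 in Q261A (10.2%), 468 in rep263A (9.02%), 458 in E260A (10.7%), 448 in K243A (5.48%), 446 in Y253A (10.5%), 444 in N278D (10.3%), 318 in G244E (5.52%) and 239 in rep217A (9.84%). The median log2 rank difference from Empty was −3.46 in A264C, −1.52 in G244E and −0.77 in rep217A, against 0.03 to 0.05 over all regions. Further from the top than in Empty were 6 members in K243A (3.51% of all regions), 8 in G244E (3.03%), 15 in rep263A (4.03%), 17 in A264C (5.28%), 32 in E260A (5.65%) and in Q261A (5.75%), 41 in Y253A (6.08%), 43 in rep217A (3.54%) and 46 in N278D (5.74%). Ranked by fold, fewer members were nearer the top than in Empty in all 9 variants. In 6 of them more members were further from the top than nearer to it, with 236 further and 97 nearer in A264C, 235 and 73 in E260A, 259 and 50 in N278D, 234 and 89 in Q261A, 252 and 41 in Y253A and 168 and 137 in rep263A. In K243A 74 were further and 328 nearer, in G244E 64 and 226, and in rep217A 109 and 161.

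Empty libraries had 489, 450 and 416 members among their 10000 strongest peaks, and called 653, 637 and 627 at any rank. All 3 Empty libraries had 286 members among their 10000 strongest, 2 libraries had 181, 1 library had 135 and none had 113. Only 15 members were called in no Empty list. Among the 113, those of best mean WT rank were inside DCLK1, at PATL1 and inside CAPN3, HTR2A and NTRK3. PATL1, a factor of mRNA decay, ranked 21, 17 and 9 in K243A and 199, 283 and 421 in G244E, against 48, 31 and 40 in A264C and 36820, 10292 and 19059 in Empty. DCLK1, a kinase gene, had ranks of 249 to 331 in K243A and 1824 and 1919 in rep217A, against 25, 30 and 33 in A264C and 28797, 52369 and 21259 in Empty. Inside NTRK3, a neurotrophin receptor gene, ranks were 6410 and 3076 in rep217A, against 87, 168 and 105 in A264C, and 1 Empty library called it.

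Of 19974 protein-coding genes, 673 (3.37%) were the nearest gene of a member, and the gene lists used to describe the members are read beside that share. Of 24 lysosome and autophagy genes, 5 were the nearest gene of a member (ACP5, ATP6V0D1, ATP6V1B2, NEU1 and WIPI1), and of 17 nutrient-sensing genes 3 were (FNIP1, LAMTOR1 and RRAGC). Of 16 pigment genes only DCT was, and of 15 lineage regulators EDNRB and SNAI2. Of 16 survival, cycle and metabolism genes BCL2A1 and CDK4 were, of 10 DNA repair genes POLD1, of 15 genes of the invasive state TEAD1 and of 16 housekeeping genes PGK1. No gene of the hepatocyte, lymphoid or keratinocyte marker lists (12 genes each) was nearest to a member. Peaks do not measure expression, so these lists check the label of the cells only through where tagged MITF lay.

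Of the 8 lysosomal and nutrient-sensing members, 7 lay at gene ends. The other, ACP5, was classed as inside its gene, although its summit was 145 bp from an annotated start of ACP5. LAMTOR1 ranked 6864, 7570 and 4626 in G244E, 3137, 2571 and 706 in K243A and 815 and 493 in rep217A, against 107, 251 and 234 in A264C. Its difference from A264C was 5.07 ± 0.51 in G244E (limma adjusted p = 6.3e-07) and 1.78 ± 0.57 in rep217A (adjusted p = 0.039). The rep217A call was lost with 20000 strongest peaks (adjusted p = 0.14), without replicate 1 or 2 (adjusted p = 1.00 and 0.20), and its sign turned under ranking by fold. FNIP1 ranked 1167, 1900 and 618 in G244E and 857, 481 and 642 in N278D, against 90, 58 and 86 in A264C. NEU1 ranked 922, 708 and 1082 in N278D and 317, 222 and 213 in G244E, against 68, 50 and 63 in A264C. All of these groups lay below A264C without overlap, and under ranking by fold the FNIP1 sign turned in G244E and the calls of LAMTOR1 in G244E and NEU1 in N278D were lost (adjusted p = 0.12 and 1).

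WIPI1, which binds phosphoinositide on forming autophagosomes, ranked 315, 269 and 431 in N278D and 30, 48 and 26 in K243A, against 49, 57 and 23 in A264C. N278D lay below A264C and K243A overlapped it, and the N278D call was lost without replicate 2 or 3 (adjusted p = 0.087 and 0.054) and under ranking by fold (adjusted p = 1). ACP5, the tartrate-resistant acid phosphatase, ranked 7936, 16668 and 7213 in G244E and 8562 and 10471 in rep217A, against 565, 1029 and 478 in A264C. Its G244E difference was 3.67 ± 0.26 (limma adjusted p = 9.6e-09), but 0.19 under ranking by fold (adjusted p = 1). ATP6V1B2, another subunit of the proton pump, ranked 2498 and 2543 in rep217A, against 655, 765 and 612 in A264C. That call (limma adjusted p = 0.047) was lost without replicate 1, 2 or 3, and its sign turned under ranking by fold.

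Among pigment, lineage and survival, cycle and metabolism genes the members lay inside or between genes, except that of CDK4, which lay at a gene end. Gene ends are those of the whole span, and the summit inside DCT was 232 bp from an annotated start of DCT. The member inside DCT, which encodes dopachrome tautomerase of melanin synthesis (chromosome 13, 94479526 to 94480250), ranked 4632, 1609 and 1724 in G244E and 484, 1402 and 475 in K243A, against 220, 132 and 102 in A264C, with no peak in 1 Empty library and ranks of 25109 and 21344 in the others. Its differences from A264C were 4.03 ± 0.46 in G244E and 2.26 ± 0.46 in K243A (limma adjusted p = 3.1e-06 and 0.0037), and both signs turned under ranking by fold. The K243A call was lost without replicate 2 or 3 (adjusted p = 0.13 and 0.052). Inside EDNRB, the endothelin receptor gene of the melanocyte lineage, 1 member ranked 5365, 5422 and 2156 in G244E, against 922, 458 and 442 in A264C, and another ranked 92, 89 and 56 in Y253A and 4132, 2071 and 6520 in K243A, against 490, 553 and 895. The G244E call at the first was lost without replicate 2 and under ranking by fold (adjusted p = 0.082 and 0.16). At the second of these, Y253A stood above and K243A below A264C, but neither difference passed the test (limma adjusted p = 0.055 and 0.13). The region near SNAI2, a transcription factor gene of neural crest cells, ranked 62, 128 and 115 in N278D, against 417, 640 and 1373 in A264C (log2 rank difference −2.88 ± 0.62, limma adjusted p = 0.0043). That call was lost without replicate 3 (adjusted p = 0.14), and its sign turned under ranking by fold.

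BCL2A1, a survival gene of the BCL2 family, had a member nearby that ranked 81, 77 and 78 in E260A, 31 and 24 in rep263A and 917 and 803 in rep217A, against 198, 129 and 96 in A264C. CDK4 ranked 654, 457 and 589 in Y253A and 71, 41 and 52 in K243A, against 69, 107 and 112 in A264C. Its Y253A difference was 2.58 ± 0.61 (limma adjusted p = 0.010), and the call was lost without any 1 of the replicates. TEAD1, a partner of YAP, had a member that ranked 8733 and 6392 in rep217A, against 942, 968 and 889 in A264C. POLD1, the catalytic subunit of DNA polymerase delta, ranked 2929 and 3415 in rep217A, against 415, 473 and 464. BCL2A1 did not pass the test in E260A or rep263A (limma adjusted p = 1 and 0.20). The rep217A signs of BCL2A1 and POLD1 turned under ranking by fold, where the calls of TEAD1 in rep217A and CDK4 in Y253A were lost (adjusted p = 0.30 and 1). The BCL2A1 call was also lost without replicate 2 or 3 (adjusted p = 0.39 and 0.083), and the POLD1 call without replicate 2 (adjusted p = 0.12).

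Recovery was last set beside the E-box. Of 303 members that overlapped a promoter of the table, 100 had CACGTG in at least 1 of these promoters and 203 did not. Only the promoter windows were searched, so a member counted as without CACGTG may hold it elsewhere in its interval. In N278D, Y253A, rep263A, K243A and G244E the members with CACGTG were recovered to a lower share than those without, with no overlap between libraries and no test. They were among the 1000 strongest in 46% to 52% in N278D, against 56.2% to 58.1% of those without, and in 59% and 61% in rep263A, against 69.5% and 72.9%. In K243A the shares were 71% to 77% with and 77.3% to 81.3% without, and in G244E 58% to 62% and 66.5% to 74.4%. The share was also lower with CACGTG in every library of E260A, Q261A, rep217A and Empty, but there the ranges overlapped. In Empty the shares were 26% to 36% with and 32.5% to 41.4% without. In A264C they were 95% to 97% with and 92.6% to 95.1% without. Median WT ranks, which the rule used, were 335 to 378 with CACGTG and 400 to 422 without.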

How the data were processed

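Peaks of 33 CUT&Tag libraries on hg38 were used as the authors deposited them. Per the submitters' processing notes, the tools were MACS2, Bowtie2 2.3.4.3 and bcl2fastq 2.20.0.422. The MACS2 version, its control library and the handling of duplicates are not given in the sources used here. Each peak carries, as deposited, its fold (a ratio to the local background at the summit), a −log10 p-value and a −log10 q-value, plus the summit offset, and each list was called on 1 library, per the labels. These values are the authors' own and were used only to rank peaks within a list and to recover relative depth.

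Each list was ranked by −log10 q, then fold. A member took the best rank of any peak overlapping it by at least 1 bp. For tests, lists were limited to 10000 peaks, regions without such a peak were given rank 10001, and log2 ranks of 33065 regions were fitted with limma 3.58.1 (R 4.3.3, eBayes with trend) over 28 libraries, WT left out, with Benjamini-Hochberg adjustment per contrast and a threshold of 0.05. The fit was checked on simulated data, where it called 26% of log2 rank shifts of 2 and 92% of shifts of 4. A difference of about 2 that did not pass may thus have been missed. Positions refer to the summit of the best WT peak and RefSeq gene spans (GRCh38.p14), whose strand and exons were not used. Python 3.11.15 was used otherwise. No column was left out.

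Named members were the 12 of best mean WT rank, the 3 of worst mean rank in each variant and in Empty, the 5 further from the top than in A264C in most variants, the 5 of best WT rank among those in no Empty list of 10000, those nearest to a gene of 11 lists, and those at the edge of the rule, each named by the nearest gene end. Some regions that this rule picks are not reported here. Members, lists and tests were chosen with earlier results of these data known. Alternatives are given in the closing section.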

Additional observations from a re-analysis of the deposited data

How the results depend on the processing

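Ranking peaks by fold in place of −log10 q changed the most. The members nearer the top than in Empty then numbered 97 in A264C, 73 in E260A, 50 in N278D, 89 in Q261A, 41 in Y253A and 137 in rep263A, and those further from the top than in A264C 5 in E260A, 28 in G244E, 4 in K243A, 12 in N278D, 0 in Q261A, 9 in Y253A, 20 in rep217A and 0 in rep263A. At an unadjusted p under 0.05, limma put 19 members of Q261A and 6 of rep263A further from the top in that ranking. The mean number of members among the 1000 strongest peaks was 69 in A264C, 69.7 in E260A, 299.7 in G244E, 338 in K243A, 39.3 in N278D, 71.7 in Q261A, 44.7 in Y253A, 197 in rep217A, 138 in rep263A and 92.7 in WT, and 76.2% and 78.1% of the regions of a WT pair returned in A264C and in the third WT library. The gene-end share minus that of other members was, in percentage points, −3.92 in A264C, −3.51 in E260A, 16.4 in G244E, −3.14 in N278D, −5.14 in Q261A, −2.54 in Y253A, 0.68 in rep217A and −8.15 in rep263A.

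Of 70 quoted tests of single members against A264C, that ranking turned the sign of 32 and ended the call of 24. In G244E the log2 rank difference became −0.49 for NRP2, −2.40 for FNIP1, −2.77 for UBL3, −0.80 for DCT, −2.48 for ANKRD10, −1.06 for CAPN3, −0.41 for ATP6V0D1, −2.47 for the USP32 region, −1.15 for MBP, −2.96 for THAP8 and −2.88 for NAPA. In rep217A the log2 rank difference became −2.21 for RRAGC, −1.73 for ATP6V1B2, −1.06 for FTH1, −0.83 for LAMTOR1, −1.05 for ANKRD10, −2.45 for BCL2A1, −1.92 for SYNCRIP, −0.45 for the USP32 region, −1.83 for the TIMP2 region, −0.72 for BAHCC1, −1.46 for POLD1, −0.61 for DHX35, −0.77 for ZNFX1 and −4.97 for PGK1. In K243A the log2 rank difference became −0.15 for SEMA5A, −1.72 for DCT and −6.67 for NAPA. In E260A the log2 rank difference became 1.87 for HTR2A. In N278D the log2 rank difference became 0.41 for SNAI2. In Y253A the log2 rank difference became 0.78 for SEMA5A. In rep263A the log2 rank difference became −0.36 for THAP8.

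Searching the 500 strongest peaks gave mean numbers of 448 in A264C, 327 in E260A, 257 in G244E, 345 in K243A, 300 in N278D, 380 in Q261A, 317 in Y253A, 176 in rep217A, 386 in rep263A, 117 in Empty and 447 in WT. The 2000 strongest gave 715 in A264C, 627 in E260A, 501 in G244E, 615 in K243A, 606 in N278D, 675 in Q261A, 627 in Y253A, 424 in rep217A, 664 in rep263A and 245 in Empty. The gene-end difference became −3.55 in A264C, 17.3 in G244E, −27.1 in Y253A, −20.7 in rep263A and 14.5 in Empty with 500 peaks, −5.42 in E260A, −10.8 in N278D, −5.35 in Q261A, −11.7 in Y253A, 1.57 in rep217A and −6.55 in rep263A with 2000, and −20.8 in Y253A and −15.4 in rep263A with a gene end taken as within 5000 bp (these settings, and ranking by fold for this difference, were chosen after the data were seen). Taking 500 or 2000 peaks from each WT list gave 353 or 1408 members, and with 500 the regions of a WT pair returned in A264C to 91.8%.

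Lists of 20000 peaks left 42 members further from the top in Q261A and 26 in rep263A. Leaving Empty out of the fit, an alternative chosen after the data were seen, gave 123 in Q261A, 238 in Y253A and 108 in rep263A. Ranking by −log10 p, lists of 5000 peaks, summits in place of overlaps and regions found in at least 2 libraries kept the counts nearer than in Empty and further than in A264C within 1.5 times. Counts in the other direction, which are small, moved more. Members nearer than in A264C numbered 22 in Q261A and 14 in rep263A with 5000 peaks and 20 and 13 with at least 2 libraries, against 12 and 8, and in K243A 10 in place of 6 were further than in Empty with at least 2 libraries.

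Without 1 replicate number, the members nearer the top than in Empty numbered 455 to 493 in A264C, 380 to 432 in E260A, 227 to 280 in G244E, 345 to 393 in K243A, 364 to 400 in N278D, 413 to 452 in Q261A, 371 to 416 in Y253A, 159 to 226 in rep217A and 344 to 449 in rep263A, and those further from the top than in A264C 77 to 111 in E260A, 226 to 276 in G244E, 86 to 133 in K243A, 99 to 163 in N278D, 15 to 38 in Q261A, 75 to 112 in Y253A, 260 to 362 in rep217A and 13 to 44 in rep263A. Without replicate 2, rep217A and rep263A kept 1 library each, assumed to vary like the other groups. Replicate numbers did not pair the libraries, with correlations of same-numbered deviations of −0.128 to 0.396 and 9 of 24 libraries closest to their own number. With a replicate block, 318 members were further from the top than in A264C in G244E, 376 in rep217A and 53 in rep263A, and no count of members called moved by over 1.5 times; of single members, the LAMTOR1 call in rep217A and the RPS9 call in N278D were lost (adjusted p = 0.065 and 0.055). Depth limits the ranks of Empty, G244E, K243A and rep217A, and the cause of these changes was not tested.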
